A study of Mus musculus with 12 samples.

Results

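The genes described here are 32 mouse genes of leukocyte adhesion: 24 integrin subunits, the endothelial and antigen-presenting-cell ligands Icam1, Icam2 and Vcam1, the selectin ligand Selplg, the adhesion receptor Cd2 with its ligand Cd48, and the intracellular integrin activators Tln1 and Fermt3. They were taken by gene symbol, with no threshold on any measured value, and all 32 were found among the 35855 genes to which the transcripts of the files were assigned. The study asked how loss of the transcription factor TCF-1, encoded by Tcf7, alters donor CD8 T cells in an allogeneic transplant model of graft-versus-host disease. RNA was sequenced from 12 libraries in 4 groups of 3 replicates: WT and TCF-1 cKO cells, each sorted from the spleen before transplant and again on day 7 after transplant.

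All T cell donors were female mice on the C57BL/6 background, matched in age to the recipients. The cKO donors carried floxed Tcf7 alleles and a Cre driven by Cd4 regulatory sequence, so that the gene was deleted at the double-positive thymocyte stage and in CD4 as well as CD8 T cells. Donor T cells were given to irradiated BALB/c recipients together with T cell-depleted WT bone marrow, and donor cells were sorted back as H2Kb+ CD8+ cells. The marrow carried the MHC haplotype of the T cell donors, b, so H2Kb does not set marrow-derived cells apart from the transferred T cells. The pre-transplant libraries were made from sorted donor cells that had never entered a recipient, so the post-transplant against pre-transplant contrast holds the host, the irradiation and the passage of 7 days at once. The labels do not say whether replicates came from separate mice, and the p-values below therefore measure only the spread between these samples, which may be technical.

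Integrins are heterodimers of an alpha and a beta chain that bind ligands on other cells or in the matrix. On T cells LFA-1, made of the Itgal and Itgb2 products, binds ICAMs during contact with target and antigen-presenting cells; VLA-4, made of the Itga4 and Itgb1 products, binds VCAM-1; and the pairing of the Itga4 product with that of Itgb7 binds MAdCAM-1 on gut vessels. The binding state is set from inside the cell by talin (Tln1) and kindlin-3 (Fermt3), which attach to the beta chain tail, while PSGL-1 (Selplg) mediates rolling on selectins, and CD2 and CD48 bind each other between cells.

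Several library properties touch the values below. Estimated counts per library ranged from 4520270 to 9577076 in the cKO pre-transplant group and from 18184814 to 32657005 in the other 3 groups. Tcf7 was at 22.1 to 38.6 TPM (the share of a library's transcripts, scaled for length) in cKO and 49.7 to 87.1 TPM in WT before transplant, but on day 7 the library labelled WT replicate 3, at 2.23 TPM, was below all 3 cKO libraries, at 2.79 to 2.97 TPM. The cKO post-transplant replicate 2, whose source label says CD4, had 151 TPM of Cd8a and 0.453 TPM of Cd4. The pre-transplant libraries went against their label of sorted CD8 T cells: 8 B cell markers summed to 6392 to 13150 TPM and 5 CD8 T cell markers to 412 to 979 TPM, whereas post-transplant libraries had 121 to 314 TPM and 2121 to 3436 TPM. The largest sum before transplant was that of 6 erythroid markers, at 12000 to 56530 TPM, against 377 to 3003 TPM after. Markers of monocytes, macrophages and neutrophils, 10 in all, summed to 1959 to 4779 TPM before and 145 to 926 TPM after. Replicates of each group differed by more than counting noise, so none was merged.

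The libraries also differed in how they represented GC-rich and GC-poor transcripts. For each library a GC tilt was computed as the median log2 deviation of the 2153 genes in the highest decile of GC content, less that of the 2153 genes in the lowest decile. It ranged from -0.85 to -0.54 in the cKO post-transplant libraries and was 0.97, 1.60 and -0.11 in the WT post-transplant libraries, the last being the library labelled WT replicate 3. Before transplant it was -0.92, -1.05 and 0.58 in cKO and 0.17 to 0.63 in WT. The adhesion genes span this axis. The stretches below, 120 bases each from the middle of the longest coding exon of the transcript with the longest coding sequence (GENCODE M21, GRCm38), are shown because they let the base composition of 3 GC-rich members be read against that of 2 GC-poor members; G and C are in capitals, and each reads 5′ to 3′ on the gene's own strand.
Itgb7, chr15:102223391-102223510, minus strand, exon 5 of 15, 62.5% GC: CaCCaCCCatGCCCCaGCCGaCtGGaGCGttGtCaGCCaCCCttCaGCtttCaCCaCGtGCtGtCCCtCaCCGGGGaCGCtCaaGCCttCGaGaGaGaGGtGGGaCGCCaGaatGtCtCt
Selplg, chr5:113819558-113819677, minus strand, exon 2 of 2, 61.7% GC: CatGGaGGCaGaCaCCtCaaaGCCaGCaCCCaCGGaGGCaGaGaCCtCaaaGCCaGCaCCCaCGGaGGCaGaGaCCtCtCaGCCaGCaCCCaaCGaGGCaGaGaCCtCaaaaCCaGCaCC
Fermt3, chr19:7002272-7002391, minus strand, exon 12 of 15, 62.5% GC: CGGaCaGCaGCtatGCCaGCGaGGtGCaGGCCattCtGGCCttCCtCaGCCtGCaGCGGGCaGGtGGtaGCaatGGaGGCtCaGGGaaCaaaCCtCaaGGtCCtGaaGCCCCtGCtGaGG
Itgb1, chr8:128713986-128714105, plus strand, exon 6 of 16, 39.2% GC: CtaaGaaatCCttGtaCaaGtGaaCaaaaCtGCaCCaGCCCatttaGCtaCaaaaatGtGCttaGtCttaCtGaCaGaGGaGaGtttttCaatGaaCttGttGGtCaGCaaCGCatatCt
Cd48, chr1:171695755-171695874, plus strand, exon 2 of 4, 32.5% GC: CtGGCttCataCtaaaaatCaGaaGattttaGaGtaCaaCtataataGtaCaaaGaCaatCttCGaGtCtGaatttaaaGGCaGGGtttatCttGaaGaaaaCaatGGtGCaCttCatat
Capitals fill most of the first 3 stretches and the smaller part of the Itgb1 and Cd48 stretches. Over all their annotated transcripts the GC content was 58.1% for Itgb7, 56.4% for Fermt3, 54.4% for Selplg, 44.7% for Itgb1 and 41.4% for Cd48, against a median of 49.1% over all genes tested post-transplant. Because of this, each comparison is given on counts scaled by TMM (trimmed mean of M values, which corrects for composition) and again after removing each library's trend on GC content.

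On day 7 Selplg, Itgb7, Cd2 and Cd48 had the highest group means per length of the 32 genes in both genotypes. In WT cells Selplg had the highest group mean, at 1518, 1992 and 278 TPM, and Itgb7 was the highest integrin subunit, at 929, 1667 and 191 TPM. In cKO cells Cd48 was highest, at 2894, 2008 and 3424 TPM, and Cd2 second, at 1258, 1136 and 1089 TPM. The library labelled WT replicate 3 had the lowest Selplg and Itgb7 and the highest Cd48 of its group, and in it Cd48 (1489 TPM) and Cd2 (1307 TPM) were above Selplg. Before transplant Selplg was the highest member in every WT library, at 489 to 594 TPM, and had the highest group mean in cKO, at 183, 179 and 474 TPM, where Cd2 was above it in replicates 1 and 2, and Cd2 and Cd48 were between 152 and 330 TPM in all 6 libraries. Among lymphocyte alpha chains Itgal led in WT at both stages, at 80.8 to 98.5 TPM before and 24.8 to 90.6 TPM after transplant. The 8 integrin chains that are mainly of epithelial, muscle and other non-blood cells summed to only 5.01 to 8.81 TPM post-transplant.

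**Figure D1:**
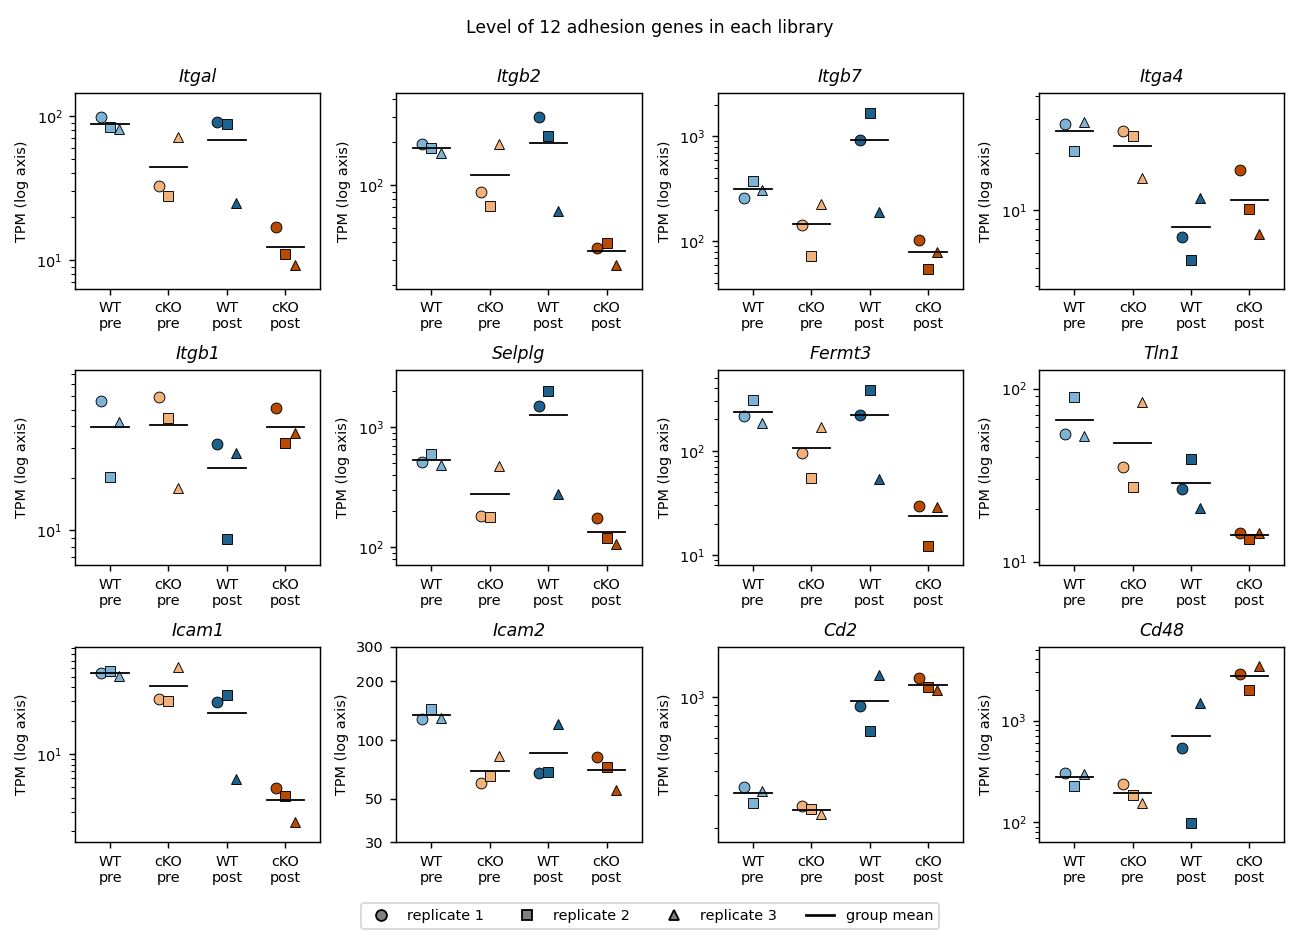
Level of 12 adhesion genes in each of the 12 libraries, in TPM on log axes, with a line at each group mean and a marker shape for each replicate number. Post-transplant, Itgal, Itgb2, Itgb7, Selplg, Fermt3, Tln1 and Icam1 are lower in every cKO library than in every WT library, and Cd48 is higher; the WT triangle is the library labelled WT replicate 3.

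On day 7 after transplant, cKO CD8 T cells had lower RNA of both LFA-1 chains, of Itgb7, of the selectin ligand Selplg and of both integrin activators than WT cells. In all, 10 of the 32 members (31.2%) were lower and 0 were higher at an adjusted p below 0.1 (edgeR, quasi-likelihood test, adjusted by Benjamini and Hochberg's method over 16026 genes). Over all those genes, 15.4% were lower and 2.51% higher. The other lymphocyte integrin chains, among them Itga4 and Itgb1, did not pass the test. With the GC trend removed, 6 members remained lower, against 4.26% of all genes. With that trend removed and a block for replicate number added, 0 members passed, against 0.0125% of all genes. Leaving out any 1 library except the one labelled WT replicate 3 also left 0 members, and 0 to 2 of all genes, past the threshold.

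Itgal, the alpha chain of LFA-1, was at 16.96, 11.1 and 9.28 TPM in cKO and at 90.6, 88.6 and 24.8 TPM in WT. Its partner Itgb2, which also pairs with the myeloid alpha chains, was at 36.4, 39.4 and 27.6 TPM in cKO and at 301, 221 and 65.7 TPM in WT. Every cKO library was below every WT library for both chains, and the library labelled WT replicate 3 was nearest to the cKO libraries. The log2 fold change was -2.83 (SE 0.65, adjusted p = 0.0448) for Itgal and -2.78 (SE 0.63, adjusted p = 0.0448) for Itgb2. Both stayed lower with the GC offset, at -1.87 (adjusted p = 0.0928) and -1.90 (adjusted p = 0.0895).

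Itgb7 forms the gut-homing receptor with the Itga4 chain and the E-cadherin receptor with the Itgae chain. It was at 103, 54.7 and 78.7 TPM in cKO and at 929, 1667 and 191 TPM in WT, so that the groups did not overlap and the WT libraries themselves differed widely. The log2 fold change was -3.94 (SE 0.83, adjusted p = 0.0448), the lowest among the 32 members, and was -1.69 (SE 0.46, adjusted p = 0.0971) with the GC offset. Selplg was at 174, 119 and 106 TPM in cKO, again below all WT libraries, with a log2 fold change of -3.61 (SE 0.77, adjusted p = 0.0448) and of -2.32 (adjusted p = 0.0895) with the GC offset.

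The integrin activators were lower too, but not past the threshold once the GC trend was removed. Fermt3 was at 29.7, 12.3 and 28.6 TPM in cKO and at 219, 385 and 53.1 TPM in WT. Tln1 was at 14.6, 13.6 and 14.6 TPM in cKO and at 26.2, 39.3 and 20.3 TPM in WT. Neither gene had overlapping groups. The log2 fold change was -3.56 (SE 0.82, adjusted p = 0.0448) for Fermt3 and -2.67 (SE 0.64, adjusted p = 0.0452) for Tln1, and with the GC offset -1.66 (adjusted p = 0.115) and -1.04 (adjusted p = 0.159). A Fermt3 value can hold reads of Trpt1, and a Tln1 value reads of Creb3, since these genes overlap on opposite strands and the library preparation does not mark strand.

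The remaining lymphocyte alpha chains showed no difference that passed the test. Itga4, shared by VLA-4 and the gut-homing receptor, was at 16.3, 10.2 and 7.55 TPM in cKO and at 7.28, 5.50 and 11.7 TPM in WT, and the groups overlapped. Its log2 fold change was 0.28 (SE 0.43, adjusted p = 0.695) and -0.62 (adjusted p = 0.322) with the GC offset, on the other side of 0. Itgb1, the common beta chain, was at 51.2, 32.02 and 36.5 TPM in cKO and at 31.8, 8.97 and 27.9 TPM in WT, with a log2 fold change of 0.63 (adjusted p = 0.427) and of -0.10 with the GC offset. Every cKO value of Itgb1 was above every WT value in TPM and in counts normalized over all 12 libraries, but the groups overlapped on counts normalized over the 6 post-transplant libraries, the scale on which overlap is counted in this comparison.

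Itgae, whose product CD103 marks resident CD8 T cells in epithelia, was at most 1.40 TPM in any post-transplant library, with a log2 fold change of 1.45 (SE 0.85, adjusted p = 0.299). Of the collagen-binding alpha chains, Itga1 was at 0.213 to 3.66 TPM and Itga2 at 0.181 to 0.755 TPM. Itga5, the fibronectin-binding chain, was at 0.125 to 1.303 TPM. The 3 chains had log2 fold changes of 0.47, 0.53 and 1.04, none past the threshold. Itga6, a laminin-binding chain, was at 3.01 to 15 TPM, but a median of only 16.6% of its estimated counts over the 12 libraries lay on protein-coding transcripts, so its value is uncertain. Itgav, the alpha chain that pairs with several beta chains to bind RGD ligands, was at 6.76 to 17.6 TPM with a log2 fold change of 0.57 (adjusted p = 0.499), and its groups did not overlap.

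Among the platelet and myeloid chains, 2 of 5 were lower in cKO. Itgax, the CD11c chain of dendritic cells that activated CD8 T cells can also carry, was at 4.84, 2.36 and 2.37 TPM in cKO and at 12.6, 14.1 and 6.16 TPM in WT. The log2 fold change was -2.34 (SE 0.54, adjusted p = 0.0448), and -2.25 (adjusted p = 0.0892) with the GC offset, nearly the same value. Itgb3, the beta chain of the platelet fibrinogen receptor and of the vitronectin receptor, was at 1.88, 1.41 and 2.50 TPM in cKO and at 6.06, 6.28 and 2.88 TPM in WT, with a log2 fold change of -1.68 (SE 0.55, adjusted p = 0.0898) and of -1.34 (adjusted p = 0.156) with the GC offset. Scaled by library totals Itgb3 was at -1.13 (adjusted p = 0.204), the only one of the 10 calls lost under that scaling. Its platelet partner Itga2b was at most 0.744 TPM in any post-transplant library, with a log2 fold change of -1.41 (adjusted p = 0.351), and in the 3 cKO libraries 0% of its estimated counts lay on its protein-coding transcript. Itgam, the CD11b chain, had a log2 fold change of -1.27 (adjusted p = 0.397) and Itgad, the CD11d chain, one of -0.45, and the groups of each overlapped.

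The levels of markers of other cells bear on the myeloid chains. Post-transplant, 10 monocyte, macrophage and neutrophil markers summed to 253 to 926 TPM in cKO and 145 to 235 TPM in WT. S100a8, S100a9 and Lyz2 made up most of this sum, and the list did not move as one: Cd68 was at 33.2, 13.4 and 20.4 TPM in cKO and at 48.0, 61.5 and 27.3 TPM in WT. The 6 dendritic cell markers summed to 2.62 to 5.81 TPM in cKO and 1.31 to 3.49 TPM in WT, and the 9 platelet and megakaryocyte markers to 2.15 to 2.44 TPM and 0.142 to 2.71 TPM. The 8 B cell markers summed to 121 to 195 TPM in cKO and 220 to 314 TPM in WT. The 5 CD8 T cell markers summed to 2796 to 3436 TPM in cKO and 2121 to 2343 TPM in WT. Neither sum overlapped between genotypes, but the CD8 T cell list did not move as one either. In normalized counts scaled for depth (CPM), Cd3e was at 193, 151 and 154 in cKO and at 770, 1748 and 309 in WT. Cd3d and Cd3g were higher in every cKO library than in every WT library, and Cd8a and Cd8b1 overlapped. The part of cell composition in the differences was not tested, and in bulk samples fewer cells of a type and less RNA per cell cannot be told apart.

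Of the ligands, Icam1, an LFA-1 ligand that T cells themselves express on activation, was at 4.92, 4.16 and 2.42 TPM in cKO and at 29.7, 34.1 and 5.88 TPM in WT. It was lower in cKO, with a log2 fold change of -2.98 (SE 0.78, adjusted p = 0.0502) and of -2.37 (adjusted p = 0.0950) with the GC offset. Icam2, the other LFA-1 ligand here, was at 82.3, 72.6 and 55.6 TPM in cKO and at 67.9, 68.9 and 121 TPM in WT, with overlapping groups and a log2 fold change of -0.40 (SE 0.42, adjusted p = 0.554). Vcam1, the VLA-4 ligand of endothelium and stroma, was at 1.41 to 6.28 TPM and also overlapped.

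CD2 and its ligand differed from each other. Cd2 was at 897, 657 and 1307 TPM in WT, overlapping the cKO values, with a log2 fold change of 0.13 (SE 0.34, adjusted p = 0.827). Cd48 was at 540, 98.01 and 1489 TPM in WT, all below the cKO values, with a log2 fold change of 1.91 (SE 0.74, adjusted p = 0.136), which did not pass the threshold. It did pass, as higher, with DESeq2 (adjusted p = 0.0627), limma-voom (adjusted p = 0.0802), 1 edgeR fit over all 12 libraries (adjusted p = 0.0694) and the replicate block (adjusted p = 0.0826). Over all genes 20.5% did not overlap in this direction, and 3 members did, the others being Itgav and Itga8; 18.8% did not overlap with cKO lower, and 10 members did, the same as those that passed the test.

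The 8 chains of non-blood cells held a single call. Itga3, a laminin-binding chain of epithelia, was at 0.655, 0.843 and 2.42 TPM in cKO and at 3.02, 7.51 and 2.78 TPM in WT. Its log2 fold change of -2.87 (SE 0.77, adjusted p = 0.0520) became -0.84 (adjusted p = 0.349) with the GC offset. Itgb6, which with the Itgav chain activates latent TGF-beta, had 43, 50 and 48 estimated counts in cKO and 1, 1 and 36 in WT, the 36 again in the library labelled WT replicate 3. Itga7, Itga8, Itga9, Itgb4, Itgb5 and Itgb8 had log2 fold changes between -1.40 and 1.65, none past the threshold. The median share of estimated counts on protein-coding transcripts over the 12 libraries was 0% for Itga8, 11.8% for Itga7 and 32.4% for Itgb8, so these values are uncertain too.

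**Figure D2:**
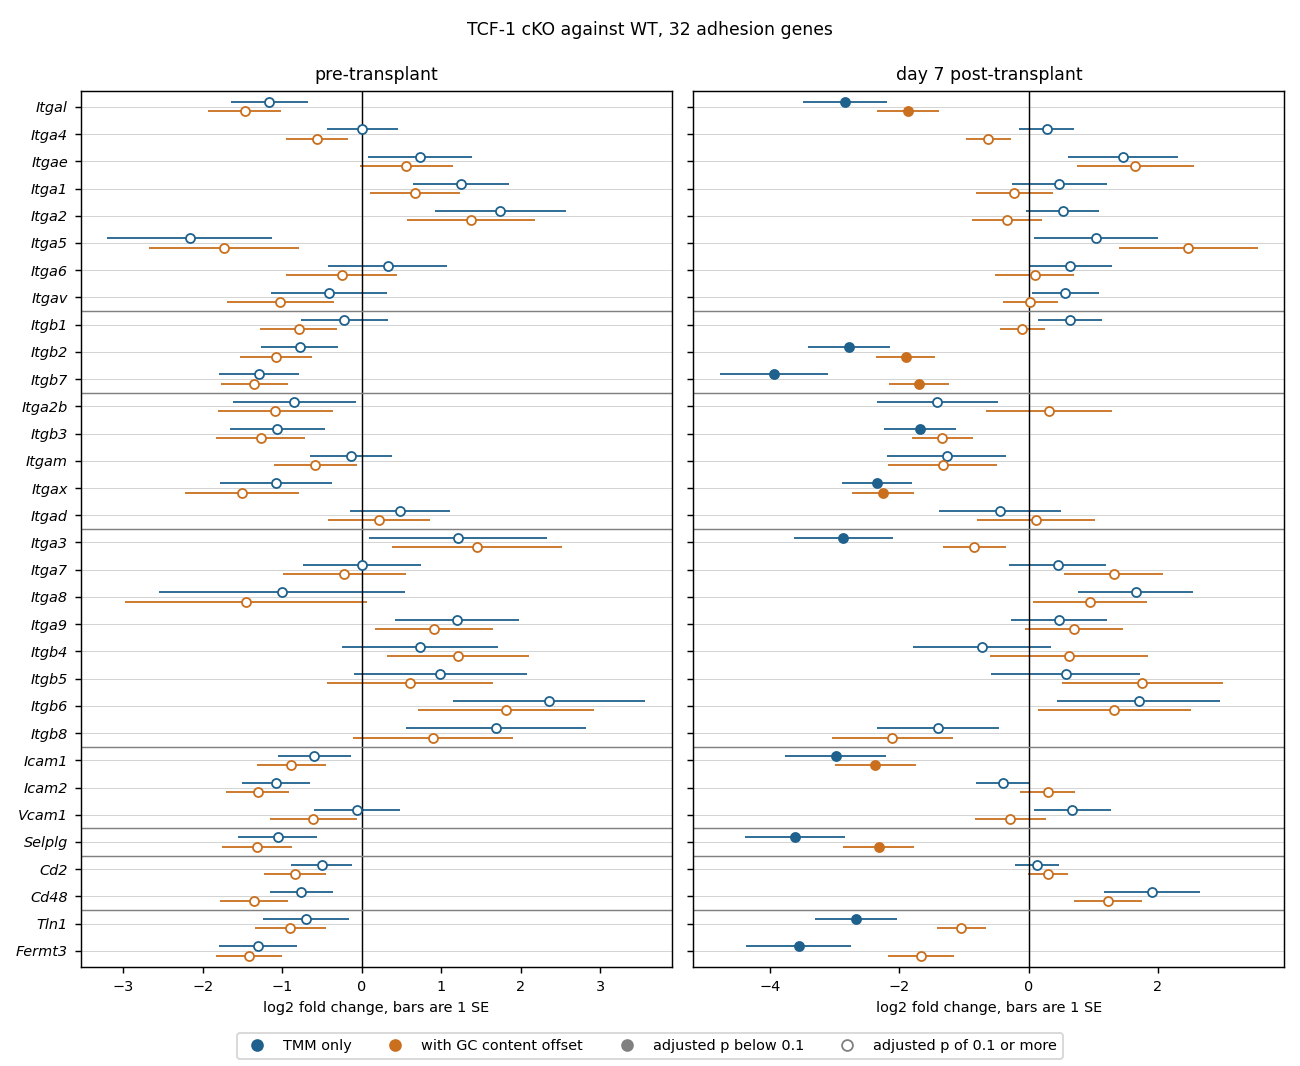
Log2 fold change of TCF-1 cKO against WT for the 32 genes, pre-transplant and on day 7 post-transplant, with bars of 1 SE, for TMM-scaled counts and with the GC content offset; filled points have an adjusted p below 0.1. Pre-transplant no point is filled, and post-transplant 10 are filled with TMM alone and 6 with the GC offset, all below 0.

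The library labelled WT replicate 3 and the other libraries had unequal weight in these calls. Without it, the same 10 members were lower, against 19.4% of all genes, and 3 were higher, against 9.72%: Cd48 with a log2 fold change of 2.87 (adjusted p = 0.0172), Itgae with 2.62 (adjusted p = 0.0638) and Itgb6 with 5.30 (adjusted p = 0.0103). WT replicates 1 and 2 had only 21 and 7 estimated counts of Itgae, with 0.038% and 0% on its protein-coding transcript, and 1 and 1 of Itgb6. Haspin overlaps Itgae on the opposite strand, so an Itgae value can hold its reads. With the GC offset and without that library, 9 members were lower, against 13.9% of all genes, and Itga3 was the one that was not. Leaving out any of the other 5 libraries left 0 members and 0 to 2 of all genes past the threshold in edgeR. In those fits 10 to 12 members had an unadjusted p below 0.05, as did 3111 to 4163 of the 16667 to 17877 genes tested.

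All 10 members called lower post-transplant were among the 21 members above the median GC content of the genes tested. Those 21 members had a median log2 fold change of -1.41, and 15 were below 0. The 11 members at or below the median GC content had a median of 0.64, and 1 was below 0. Over all genes, 30.03% of those above the median GC content were called lower and 0.736% of the rest. By deciles of GC content the median log2 fold change of all genes was 0.68 in the lowest and -2.51 in the highest. The GC offset brought these to -0.11 and -0.41, and the medians of the members on either side to -0.84 and -0.10. Across the 32 members, Spearman's rho between GC content and fold change was -0.56 before and 0.01 after the offset, as a description, since the points share the same 6 libraries.

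**Figure D3:**
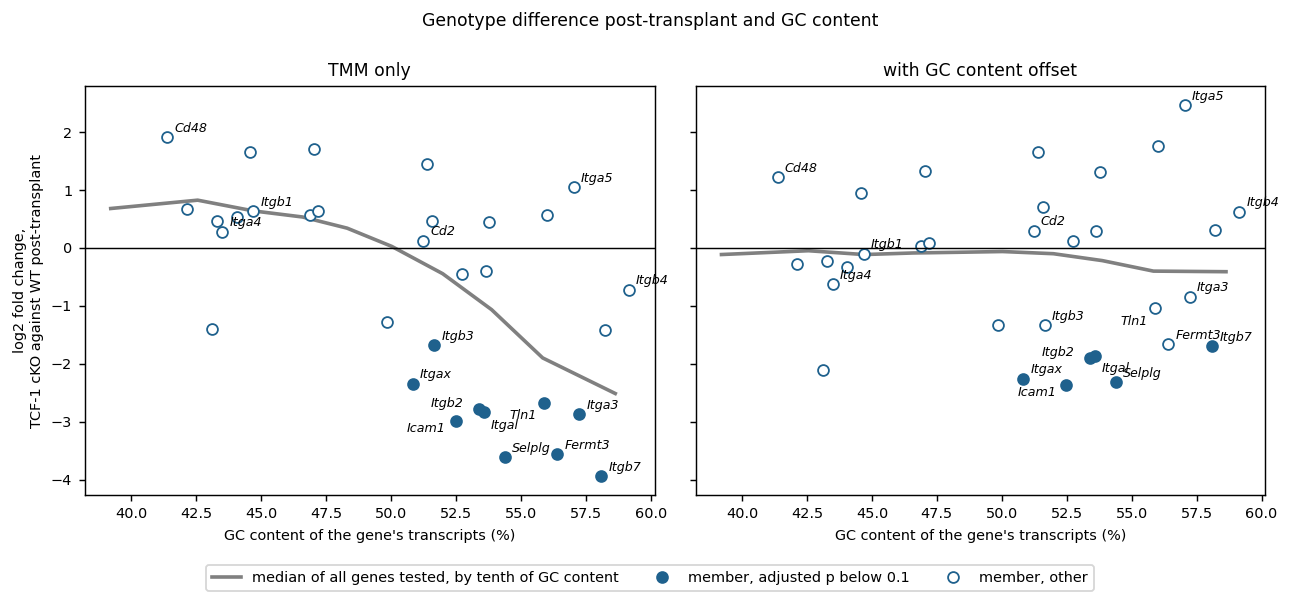
Log2 fold change of TCF-1 cKO against WT post-transplant for each of the 32 members (points) against the GC content of its transcripts in percent, with TMM alone and with the GC content offset; the grey line joins the medians of all genes tested by decile of GC content, and filled points have an adjusted p below 0.1. The grey line goes from 0.68 to -2.51 with TMM alone and lies between -0.41 and 0 with the offset, and Icam1, Selplg, Itgax, Itgal, Itgb2 and Itgb7 stay filled below it.

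Relative levels of the chains within a library do not depend on how libraries are scaled. The ratio of Itgb7 to Itgb1 was 2.004, 1.71 and 2.16 in cKO post-transplant and 29.2, 186 and 6.84 in WT post-transplant. Before transplant it was 2.40, 1.62 and 12.7 in cKO and 4.57, 18.4 and 7.23 in WT. The libraries with the highest GC tilt in WT post-transplant (1.60), WT pre-transplant (0.63) and cKO pre-transplant (0.58) were also those with the highest ratio of their groups. In cKO post-transplant the order was the reverse, with tilts of -0.55, -0.54 and -0.85 in replicates 1, 2 and 3. The part of GC content in these ratios was not tested. The ratio of Itgal to Itga4 was 1.04, 1.09 and 1.23 in cKO post-transplant and 12.4, 16.1 and 2.13 in WT post-transplant, and 1.25, 1.13 and 4.88 in cKO and 3.49, 4.14 and 2.78 in WT before. The ratio of Itgal to Itgb2, the 2 chains of LFA-1, lay between 0.281 and 0.509 in all 12 libraries, and their GC content was 53.6% and 53.4%.

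**Figure D4:**
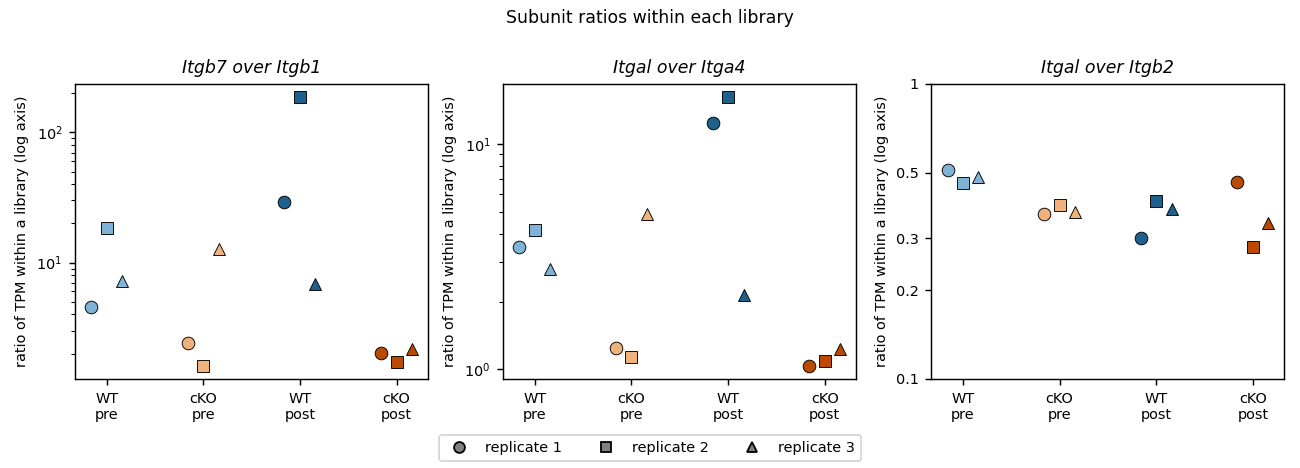
Ratio of TPM of Itgb7 to Itgb1, Itgal to Itga4 and Itgal to Itgb2 within each library, on log axes, by group and replicate number. The first 2 ratios span 1.62 to 186 and 1.04 to 16.1 over the 12 libraries, whereas the ratio of the LFA-1 chains stays between 0.281 and 0.509.

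Before transplant no adhesion gene differed between the genotypes past the threshold. The smallest adjusted p-values belonged to Fermt3, Itgb7, Icam2 and Itgal, with log2 fold changes of -1.31 (SE 0.49, adjusted p = 0.236), -1.29 (SE 0.50, adjusted p = 0.239), -1.08 (SE 0.43, adjusted p = 0.246) and -1.16 (SE 0.48, adjusted p = 0.259). Over all 18757 genes, 0.0373% were called in either direction in edgeR. An unadjusted p below 0.05 was seen for 4 members and for 3322 of all genes. DESeq2 and limma-voom each called 0 members. On the normalized count scale 7 members did not overlap with cKO lower, namely Itgal, Itgb7, Icam2, Selplg, Cd2, Cd48 and Fermt3, against 10.8% of all genes. Another 4, Itga1, Itga2, Itga3 and Itgb6, did not overlap with cKO higher, against 18.3%.

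Itgal was at 32.6, 27.9 and 71.7 TPM in cKO and at 98.5, 84.6 and 80.8 TPM in WT before transplant. Icam2 was at 60.0, 65.3 and 82.5 TPM in cKO and at 129, 144 and 130 TPM in WT. For both genes, and for Itgb2 at 90.0, 71.8 and 194 TPM, the cKO replicate 3 was nearest to or within the WT range. Without that library 8 members were lower, against 8.91% of all genes. They were Selplg at -1.97 (adjusted p = 0.0139), Itgal at -1.97 (adjusted p = 0.0168), Itgb7 at -2.07 (adjusted p = 0.0186), Fermt3 at -2.05 (adjusted p = 0.0188), Tln1 at -1.77 (adjusted p = 0.0192), Itgb2 at -1.62 (adjusted p = 0.0199), Icam2 at -1.59 (adjusted p = 0.0358) and Icam1 at -1.29 (adjusted p = 0.0587). The 2 libraries then left in cKO had GC tilts of -0.92 and -1.05, and the one left out 0.58.

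The mixture of cells named above bears on this stage. Summed B cell markers were 6392 to 10180 TPM in cKO and 9968 to 13150 TPM in WT, and CD8 T cell markers 412 to 452 TPM in cKO and 931 to 979 TPM in WT, in the same direction as Itgal, Itgb7 and Cd2. B cells express Itgal, Itgb2, Itgb7 and Cd48 as well. Summed erythroid markers, at 12000 to 56530 TPM in cKO and 12430 to 39810 TPM in WT, overlapped between the genotypes and differed widely between replicates. The part of cell composition in the pre-transplant values was not tested.

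From before to after transplant, the CD2 and CD48 genes rose in both genotypes and Vcam1 fell in both. In WT, Itgb7, Selplg and Itga3 also passed the threshold as rising and Itga5 as falling. In cKO, Itgb1, Itgb3 and Icam2 passed it as rising and Itga2b, Itgad and Icam1 as falling. These lists do not show a difference between the genotypes, since no member passed the edgeR interaction test given below. With the GC offset Itgb7, Selplg, Itga3 and Itgb3 passed as rising in both genotypes. The values are normalized counts scaled for depth (CPM), since TPM is a share of each library and total composition changed with stage. Scaling by library totals alone put the median log2 fold change of all genes at -1.25 in WT and -1.89 in cKO, against -0.30 and -0.29 with TMM. The cell mixture given above also changed with stage. Cd8a itself went from 154, 87.2 and 152 CPM to 660, 906 and 478 CPM in WT. In cKO it went from 26.6, 28.8 and 30.9 CPM to 772, 622 and 501 CPM. A change of mixture and a change per cell cannot be told apart for any gene that rose or fell.

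Cd2 was at 230, 177 and 234 CPM before and 1463, 1475 and 2540 CPM after transplant in WT. In cKO it went from 121, 109 and 162 CPM to 2651, 2127 and 2203 CPM. No library overlapped between stages in either genotype. Its log2 fold change was 2.82 (SE 0.45, adjusted p = 0.00366) in WT and 4.15 (SE 0.37, adjusted p = 0.000129) in cKO. Cd48 was at 222, 156 and 231 CPM before and 918, 229 and 3011 CPM after in WT, where the stages overlapped. In cKO it went from 115, 84.6 and 108 CPM to 6336, 3912 and 7198 CPM, with no overlap. The log2 fold change was 2.47 (SE 0.76, adjusted p = 0.0563) in WT and 5.82 (SE 0.44, adjusted p = 0.000105) in cKO, but with library totals Cd48 was at 1.70 and did not pass the threshold in WT. Nor did Cd48 pass in WT with limma-voom (adjusted p = 0.158), with the replicate block, or when WT pre-transplant replicate 1, 2 or 3 was left out (adjusted p = 0.147, 0.194 and 0.175).

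In WT, 5 of 31 members tested rose, against 9.70% of all 16790 genes, and 2 fell, against 10.3%. Itgb7 went from 475, 628 and 609 CPM to 4105, 10110 and 982 CPM, a log2 fold change of 2.91 (SE 0.72, adjusted p = 0.0252). Selplg went from 637, 659 and 660 CPM to 4365, 7864 and 931 CPM, a log2 fold change of 2.52 (SE 0.67, adjusted p = 0.0333), which with library totals was 1.40 and did not pass. In both genes the library labelled WT replicate 3 was the lowest after transplant and still above every library before it. Without WT pre-transplant replicate 1, 2 or 3, Selplg did not pass (adjusted p = 0.112, 0.123 and 0.140), and Itgb7 did not without replicate 2 or 3 (adjusted p = 0.104 and 0.113). With the replicate block Itgb7 passed and Selplg did not. Itga3 rose with a log2 fold change of 4.51 (SE 1.02, adjusted p = 0.0172) from at most 1.44 CPM. With the GC offset 8 members rose, against 14.9% of all genes, the added ones being Itgb2 at 1.32 (adjusted p = 0.0837), Itgb3 at 1.94 (adjusted p = 0.0265) and Itgax at 2.11 (adjusted p = 0.0315).

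Among the genes that fell in WT, Vcam1 went from 117, 36.5 and 210 CPM to 19.5, 6.40 and 7.87 CPM, a log2 fold change of -3.62 (SE 0.80, adjusted p = 0.0156). Itga5 had -4.07 (SE 1.21, adjusted p = 0.0501), from 4.61, 23.1 and 1.04 CPM to at most 0.963 CPM. Without WT pre-transplant replicate 2, Itga5 was at -2.30 (adjusted p = 0.255), and it did not pass without post-transplant replicate 1, replicate 2 or the library labelled replicate 3 either (adjusted p = 0.135, 0.120 and 0.104). With the GC offset 3 members fell, against 9.85% of all genes, with Itga2b added at -2.78 (adjusted p = 0.0853). The platelet and megakaryocyte markers, which moved with Itga2b, went from 31.8 to 48.9 TPM to 0.142 to 2.71 TPM in WT, and the monocyte, macrophage and neutrophil markers from 2648 to 4779 TPM to 145 to 235 TPM. The change of cell mixture between the stages and a change per cell cannot be told apart for these genes.

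In cKO, 5 of 31 members rose, against 19.7% of all 18535 genes, and 4 fell, against 16.8%. The shares of members that moved were thus no larger than those of all genes. Itgb1 went from 115, 77.1 and 39.7 CPM to 423, 233 and 293 CPM, a log2 fold change of 2.02 (SE 0.47, adjusted p = 0.0108). Icam2 went from 23.8, 27.8 and 58.3 CPM to 166, 133 and 110 CPM, with 1.89 (SE 0.44, adjusted p = 0.0107), and Itgb3 had 1.72 (SE 0.47, adjusted p = 0.0232). Scaled by library totals, Itgb1, Icam2 and Itgb3 were at 0.33, 0.37 and 0.07 and did not pass, so that their rise is one relative to the bulk of genes.

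Vcam1 fell in cKO with a log2 fold change of -2.14 (SE 0.36, adjusted p = 0.00203), Itgad with -2.70 (SE 0.58, adjusted p = 0.00736), Itga2b with -2.56 (SE 0.79, adjusted p = 0.0370) and Icam1 with -1.61 (SE 0.54, adjusted p = 0.0504). Without cKO pre-transplant replicate 3, Itga2b was at -1.35 (adjusted p = 0.272) and Icam1 at -0.79 (adjusted p = 0.197). Without post-transplant replicate 3 neither passed (adjusted p = 0.104 and 0.173), nor did Itga2b without post-transplant replicate 1 (adjusted p = 0.121) or Icam1 without replicate 2 (adjusted p = 0.140). A median of 35.2% of the estimated counts of Itga2b lay on its protein-coding transcript. In cKO the platelet and megakaryocyte markers summed to 55.39 to 76.95 TPM before and 2.15 to 2.44 TPM after transplant. The monocyte, macrophage and neutrophil markers summed to 1959 to 4405 TPM before and 253 to 926 TPM after. A change of cell mixture and a change per cell cannot be told apart for Vcam1, Itgad, Itga2b and Icam1 either. Itgal and Itgb2 had log2 fold changes of 0.00 and 0.02. Their normalized counts were 77.2, 60.3 and 228 CPM for Itgal before and 180, 92.9 and 93.7 CPM after, and with library totals both chains were lower, at -1.48 and -1.44. With the GC offset 8 members rose, against 21.4% of all genes, and 5 fell, against 19.4%. The added ones were Itgb7 at 1.78 (adjusted p = 0.00536), Selplg at 1.21 (adjusted p = 0.0442) and Itga3 at 1.71 (adjusted p = 0.0739), which rose, and Itgb8 at -2.46 (adjusted p = 0.0617), which fell. With library totals and no GC offset Itgb7, Selplg and Itga3 lay on the other side of 0, at -0.50, -0.79 and -0.41.

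**Figure D5:**
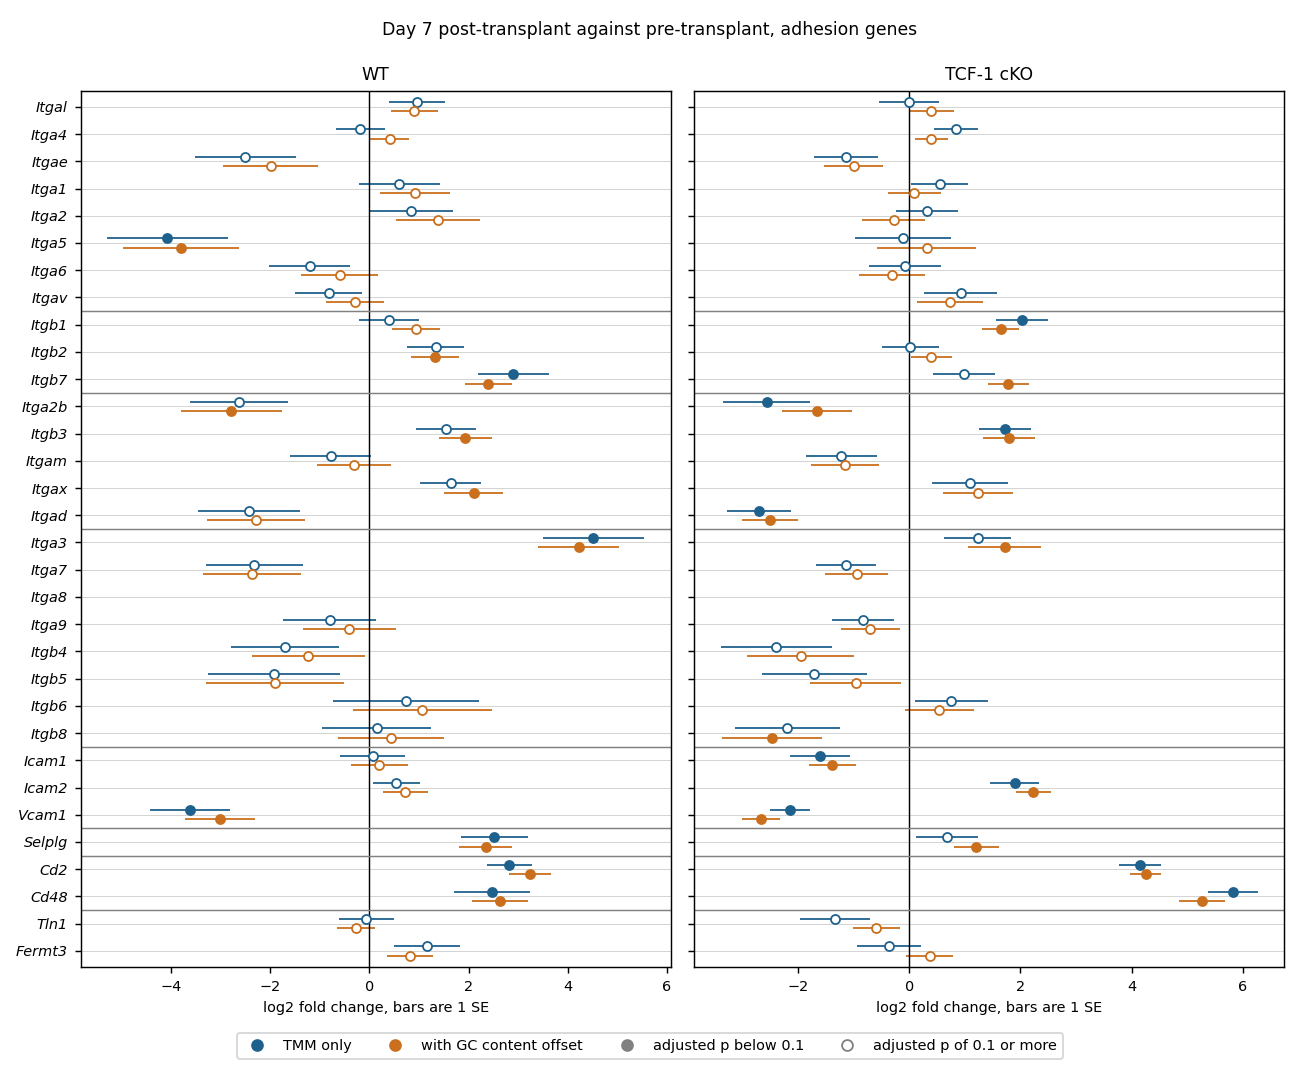
Log2 fold change of day 7 post-transplant against pre-transplant in WT and in TCF-1 cKO, with bars of 1 SE, for TMM-scaled counts and with the GC content offset; filled points have an adjusted p below 0.1, and Itga8 passed no filter on low counts in either. Cd2 and Cd48 are above 0 and Vcam1 below 0 in both genotypes.

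An interaction term fitted to the 12 libraries tested whether the change with transplant differed between the genotypes. No member passed the threshold among 21526 genes, of which 0.00465% did. An unadjusted p below 0.05 was seen for 6 of 32 members, Itga5, Itgb7, Itga3, Cd48, Icam1 and Selplg. It was also seen for 3377 of all 21526 genes, a share near that of the members. The lowest adjusted p was 0.233, for Cd48, with a difference of log2 fold changes of 3.05 (SE 0.93). DESeq2 called 3 members and 7.96% of all genes. Without the library labelled WT post-transplant replicate 3, Cd48 had 4.34 (adjusted p = 0.0486), and Itga3, Itgb7, Selplg and Icam1 had -3.94, -2.64, -2.55 and -2.36, these 4 being lower at an adjusted p below 0.1, against 3.25% of all genes.

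Other genes of the pathway, 74 found of 75 listed, covered integrin activation and tail adaptors, selectin ligand glycosylation, other adhesion molecules and integrin partners, remaining integrin chains and matrix ligands. Post-transplant 18 of 68 tested were lower in cKO and 0 higher, against 15.4% and 2.51% of all genes, and 13 were lower with the GC offset, against 4.26%. Those with the smallest p were Cd5, a scavenger receptor family member on T cells, at -3.21 (SE 0.60), Sharpin, an inhibitor of integrin activation, at -3.92 (SE 0.74), Vasp, an actin regulator at adhesion sites, at -3.55 (SE 0.69), and Parvg, a partner of integrin-linked kinase, at -3.57 (SE 0.71), each with an adjusted p of 0.0448. With the GC offset the 4 were at -1.90, -2.38, -1.37 and -2.65. Pre-transplant 0 of 72 were called in either direction, and in the interaction 0 were called.

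With transplant, 13 of 71 pathway genes rose and 7 fell in WT, and 22 of 70 rose and 13 fell in cKO. The shares over all genes were 9.70% and 10.3% in WT and 19.7% and 16.8% in cKO, and those of the pathway genes that fell were near them. In WT the smallest p belonged to the tetraspanin gene Cd81 at -4.21 (adjusted p = 0.00270), to the sialyltransferase gene St3gal4 at 2.30 (adjusted p = 0.0146), to Pecam1, an adhesion molecule of endothelium, platelets and leukocytes, at -2.11 (adjusted p = 0.0153) and to Cd226, an activating receptor that associates with LFA-1, at 3.77 (adjusted p = 0.0179). In cKO they were Skap1, an adaptor from the T cell receptor to integrins, at 4.31 (adjusted p = 0.000116), the small GTPase gene Rap1a at 3.93 (adjusted p = 0.000239), Cd226 at 6.08 (adjusted p = 0.000281) and the matrix ligand gene Vtn at -6.13 (adjusted p = 0.000342). Cd81 is also abundant on B cells, whose markers were far lower after transplant, as given above. The limit on cell mixture given above holds for the pathway genes that rose as well.

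The promoters of the member with the lowest and of the member with the highest genotype difference on day 7 were searched for CTTTGA, the core of the sequence that TCF/LEF factors bind, on both strands in windows from 250 bases before to 50 after the start (RefSeq, GRCm38.p6). The motif was in 16% of the 32851 promoters of all genes and in 3 of 22 promoters of the 20 members with an entry, those of Cd48, Itga1 and Itgam. The Cd48 window is shown with the match, which lies on the other strand and so reads as its reverse complement, in capitals, and the Itgb7 window has no match.
Cd48, chr1:171681742-171682041, plus strand: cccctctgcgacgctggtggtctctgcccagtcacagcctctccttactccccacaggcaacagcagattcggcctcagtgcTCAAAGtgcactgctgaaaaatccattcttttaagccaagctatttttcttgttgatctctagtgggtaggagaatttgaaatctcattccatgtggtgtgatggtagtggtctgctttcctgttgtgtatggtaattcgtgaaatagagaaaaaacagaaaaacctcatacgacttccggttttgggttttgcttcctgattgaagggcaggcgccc
Itgb7, chr15:102231886-102232185, minus strand: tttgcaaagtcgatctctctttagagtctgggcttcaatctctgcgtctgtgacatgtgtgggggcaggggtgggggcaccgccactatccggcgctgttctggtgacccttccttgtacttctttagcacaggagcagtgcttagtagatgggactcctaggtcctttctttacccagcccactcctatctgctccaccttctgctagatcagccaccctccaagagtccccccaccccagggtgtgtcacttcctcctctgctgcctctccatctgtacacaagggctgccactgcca
A match of these letters is a description of the window and says nothing of binding in these cells.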

How the data were processed

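The authors pseudoaligned paired-end reads with kallisto 0.46.2 and deposited, for each of 12 libraries, estimated counts and TPM (length-scaled transcript shares of a library) per Ensembl transcript. The genome build and transcript release are not given in the sources used here. Of 117497 transcripts in the files, 116374 matched GENCODE M21 (GRCm38) and were summed to 35855 genes, and counts were rounded. cDNA was amplified from 1 ng of RNA without molecular identifiers, so that counts carry amplification error as well as counting error. With 3 counts as the floor, the limit of detection was 0.0919 to 0.664 CPM (counts scaled to library totals).

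Each comparison was fitted across all genes with edgeR 4.0.16 (quasi-likelihood test, TMM factors, genes kept by its default filter) on the groups concerned, and the interaction on all 12 libraries, in R 4.3.3. P-values were adjusted by the Benjamini-Hochberg method over all genes tested, with a threshold of 0.1, the one in the study's methods. The GC offset subtracted a loess trend (span 0.4, degree 2) of each library's log2 deviation on the GC content of the genes' transcripts. Scripts were tested on simulated data. Groups do not overlap where every library of one is above every library of the other in CPM normalized over the libraries of that comparison. CPM values printed are normalized over all 12 libraries. Alternatives used DESeq2 1.42.0, limma 3.58.1 (voom), other scalings and filters, a replicate block, and each library left out in turn. Leaving out the library labelled WT post-transplant replicate 3 together with the GC offset was added after seeing the data. All 32 members are named, and, of the pathway lists, the 4 genes with the smallest p past the threshold. The members and lists were chosen with earlier results of these data known.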

Additional observations from a re-analysis of the deposited data

How the results depend on the processing

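Counts of members past the threshold, among 31 or 32 tested, are compared here with those of the report. Percentages in parentheses are the share of all genes tested that was called in the same setting, in either direction. Pre-transplant the count of 0 (0.0373%) held under every alternative except leaving out 1 library, which gave 0 to 8 (0% to 12.7%). Post-transplant the count of 10 (17.9%) became 6 with the GC content offset (5.28%) and 4 with an offset for GC content and length (4.25%). It became 0 with the GC content offset and the replicate block together (0.0125%), and leaving out 1 library gave 0 to 13 (0% to 29.1%). In WT over time the count of 7 (20%) became 14 with DESeq2 (27.7%), 11 without a filter on low counts (12.8%) and 11 with the GC content offset (24.7%). It became 12 with the offset for GC content and length (21%) and 13 in 1 fit over all 12 libraries (21.3%). With the GC content offset and without the library labelled WT post-transplant replicate 3 it was 13 (20.9%). Leaving out 1 library gave 3 to 12 (8.37% to 22.2%). In cKO over time the count of 9 (36.5%) became 19 with library totals (66.2%), and 8 to 13 with 1 library left out (26.5% to 33.2%). The interaction count of 0 (0.00465%) became 3 with DESeq2 (7.96%) and 2 without a filter (1.72%), and 0 to 5 with 1 library left out (0% to 8.73%). The cause of these shifts was not tested.

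Scaled by library totals, 11 members changed sign in cKO over time. Itgal at -1.48, Itga1 at -1.12 and Itgb2 at -1.44 passed the threshold as lower, and Itga2, Itga3, Itga4, Itgav, Itgax, Itgb6, Itgb7 and Selplg, at -1.24 to -0.41, did not pass it. Over all genes, library totals gave 717 higher and 4136 lower in WT over time against 1628 and 1734, and 1660 and 10608 in cKO against 3660 and 3114. Pre-transplant, DESeq2 called 919 genes higher and 532 lower against 3 and 4 in edgeR, and without a filter 198 and 421. Post-transplant, DESeq2 called 1068 and 3456 against 403 and 2465, and the GC content offset 164 and 682. In the interaction DESeq2 called 987 and 726 genes, against 0 and 1.

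The labels do not say whether the replicate numbers pair the samples. Same-numbered libraries correlated in their deviations between -0.07 and 0.05 pre-transplant and between 0.06 and 0.17 post-transplant. Over time the values lay between 0.02 and 0.26 in WT and between -0.17 and -0.02 in cKO. Post-transplant each library correlated best with its own number, the other pairs reaching at most 0.02, which is a hint from the data and not from the design. With the replicate block the counts of members were 0 pre-transplant (0% of all genes) and 8 post-transplant (7 lower and Cd48 higher, against 12.7%). They were 6 in WT (18.4%) and 7 in cKO over time (29.6%), and 0 in the interaction (0%). The cKO pre-transplant libraries had the lowest depth and so the highest floor, at 0.313 to 0.664 CPM for 3 counts. Itga8 passed the filter on low counts in both genotype comparisons and in neither comparison over time.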
